A study of Macaca mulatta with 31 samples.

Results

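The genes described here are the 200 most evenly expressed genes of the rhesus macaque blastocyst, out of 5828 genes that could have been taken and 35395 genes in the whole count table. They were chosen on the measured values. CPM, counts per 1e6, is a gene's count scaled by the column total. Genes with an identifier number under 50000 and a median CPM of 20 or more over 31 blastocysts numbered 6028, the 200 of these with the highest median CPM were left out, and of the remaining 5828 (called eligible genes below) the 200 with the lowest standard deviation (SD) of log2(CPM + 1) over all blastocysts were taken. The members are thus 3.43% of the eligible genes. Their spread, their levels and their diet calls in the same blastocysts are a description of that choice, and are given without a test of the list.

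Every blastocyst of a mammal must run the same basic machinery: it copies and splices RNA, starts translation, imports proteins into the nucleus, tags proteins with ubiquitin and burns fuel in mitochondria. Genes for that machinery are often called housekeeping genes, and a few of them serve as references against which other transcripts are scaled. At the blastocyst stage the embryo also holds an outer trophectoderm, an inner epiblast and a primitive endoderm, so that transcripts restricted to 1 of these lineages vary with its share of the cells as well as with their own level. In RNA from whole blastocysts fewer cells of a type and less RNA per cell cannot be told apart.

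The RNA came from single zona-free rhesus macaque (Macaca mulatta) blastocysts, fertilised in vitro and cultured for 6 to 8 days. Of these, 14 came from a controlled ovarian stimulation while the females ate standard chow (SCD, 15% fat) and 17 from a later stimulation after 6 to 8 months on a Western-style diet (WSD, 36% fat). The females were 5 to 6 years old. Diet and stimulation cycle changed together and cannot be told apart. The labels class the embryos as fragmented or non-fragmented during development, giving 6 and 8 SCD blastocysts and 9 and 8 WSD blastocysts. Library totals lay between 10037852 (WSD 10) and 29865336 counts (WSD 7). The dams of blastocysts in the same group are not in the labels, so p-values measure the spread between blastocysts. WSD 16 and SCD 8 stood farthest from the other libraries over the eligible genes. The members kept, the diet calls and the SDs by diet are also given without 1 or both of them. The lowest count of any member in any blastocyst was 222, and the SD that counting error alone would give had a median of 0.03 over the members.

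The SD of the members on the log2 scale ran from 0.13 to 0.28, with a median of 0.25. Over the eligible genes the median was 0.55 and the highest 3.03. The highest CPM of a member was between 1.41 and 2.95 times its lowest over the 31 blastocysts, with a median ratio of 2.10, against a median ratio of 5.52 over the eligible genes. In 77 members the ratio stayed under 2, which was so in 81 eligible genes in all. No member departed from its own median by more than 1 log2 unit in any blastocyst, whereas 4676 eligible genes (80.2%) did. For 74.4% of the eligible genes the blastocyst farthest from the gene's median lay below it, and for the members this held in 109 of 200.

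At the threshold itself nothing separated the neighbours. The last members inside were TRIP4, PPP1R11 and NVL, and the nearest genes outside were VASP, TEDC1 and KAT5, all with an SD of 0.28. Median CPM was 76.1 for TRIP4, a co-activator of nuclear receptors, 102 for PPP1R11, an inhibitor of protein phosphatase 1, and 112 for NVL, an ATPase of ribosome assembly. It was 175 for VASP, an actin regulator, 140 for TEDC1, a centriole protein, and 34.7 for KAT5, a histone acetyltransferase.

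**Figure D1:**
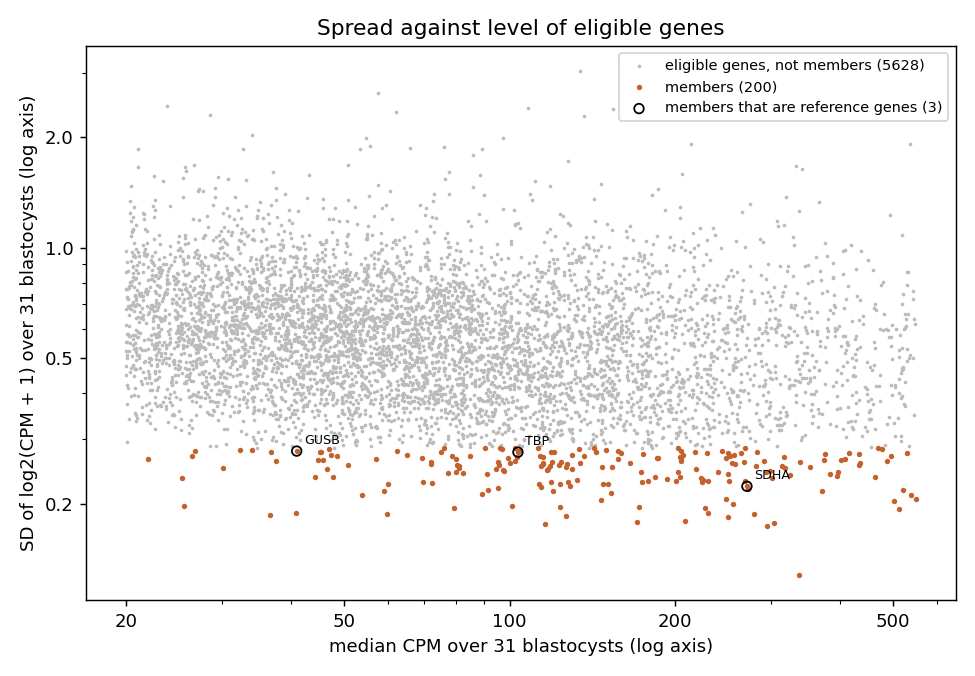
Each point is a gene, with its median CPM over 31 blastocysts on the x axis and the SD of log2(CPM + 1) on the y axis, both on log scales. The 200 members lie at or under an SD of 0.284 at all levels from 21.9 to 550 CPM, and the circled reference genes SDHA, TBP and GUSB are among them.

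Members occurred at all levels but more often at high ones. When the eligible genes were ordered by median CPM and divided into 4 equal bins of 1457 genes, the bins held 11, 20, 63 and 106 members from the lowest to the highest. The median SD of all genes in these bins was 0.62, 0.57, 0.52 and 0.49. Per kilobase of exon, the members had a median of 50.6 CPM and the eligible genes 21.2 CPM. The highest levels per kilobase among the members were 305 CPM for CYB5B, a cytochrome b5 of the outer mitochondrial membrane, 280 for DDOST, a subunit of the oligosaccharyltransferase, and 272 for EIF3D. The lowest was 3.30 CPM per kilobase, for the identifier paired with ROS1. By CPM alone the top members were NAP1L4 (550), a histone chaperone, TMBIM1 (538) and SERINC3 (531), and the bottom ones TRAIP (21.9), a ubiquitin ligase of replication repair, VPS26B (25.3) of the retromer coat, and an identifier with no symbol, ENSMMUG00000012508 (25.5).

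The lowest spread of all belonged to UBE2V1, a catalytically inactive partner of the ubiquitin-conjugating enzyme UBE2N, with an SD of 0.13. Its CPM was 289 to 377 after SCD (median 319, n = 14) and 306 to 406 after WSD (median 346, n = 17), so that the diets overlapped over most of their range. HADHA, the alpha subunit of the mitochondrial trifunctional protein that oxidises long-chain fatty acids, came next with 264 to 341 CPM after SCD (median 298) and 185 to 352 after WSD (median 291). A single blastocyst, WSD 16, held its lowest value. KLHDC3, a substrate receptor of a cullin ubiquitin ligase, had 96.9 to 149 CPM after SCD (median 113) and 97.6 to 142 after WSD (median 118).

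YTHDF2, the reader of N6-methyladenosine that sends transcripts to decay, ranked 4th. Its CPM was 275 to 409 after SCD (median 324) and 241 to 358 after WSD (median 290). ARIH2, a ubiquitin ligase that works with cullins, had 147 to 196 CPM after SCD (median 161) and 136 to 224 after WSD (median 178). USP39, a spliceosome factor of the deubiquitinase fold, had 164 to 222 CPM after SCD (median 207) and 166 to 263 after WSD (median 214). Both overlapped between the diets, and in both the SCD values lay within a narrower band.

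RBM39, a splicing co-activator, had 169 to 299 CPM after SCD (median 242) and 230 to 303 after WSD (median 261), with the lowest value in SCD 8. PSME3IP1, which binds a proteasome activator, had 30.0 to 43.1 CPM after SCD (median 36.1) and 30.1 to 51.3 after WSD (median 40.7). NSD3, a histone H3 lysine 36 methyltransferase, had 50.2 to 72.1 CPM after SCD (median 59.3) and 52.0 to 82.2 after WSD (median 60.7). WSD 16 held the highest value of both PSME3IP1 and NSD3. For both genes the diets overlapped.

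**Figure D2:**
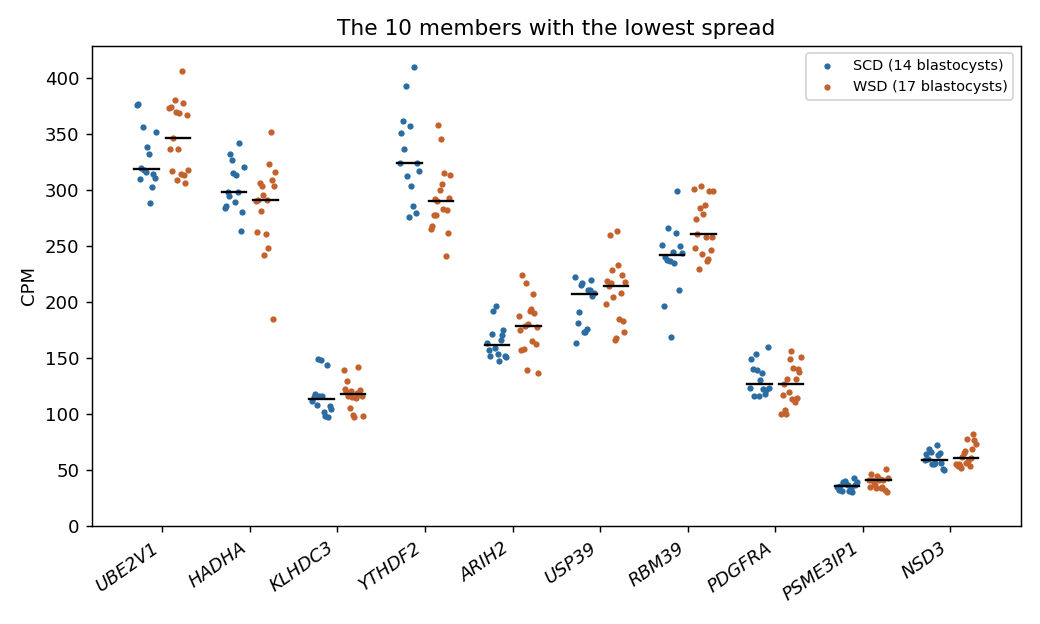
CPM of the 10 members with the lowest SD in each of 14 SCD and 17 WSD blastocysts, with black bars at the group medians. UBE2V1 stays between 289 and 406 CPM, and the diets overlap for all 10 genes.

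PDGFRA, a receptor tyrosine kinase used as a marker of primitive endoderm, ranked 8th with an SD of 0.19. Its CPM was 116 to 160 after SCD (median 127) and 99.9 to 156 after WSD (median 127). The other primitive endoderm markers spread far more widely: the SD was 0.51 for GATA6, 1.92 for SOX17, 2.14 for GATA4 and 2.29 for COL4A1. COL4A1 ran from 0.200 to 298 CPM and SOX17 from 0.238 to 183 CPM. GATA4, with a median of 12.9 CPM, was at 0 in 1 blastocyst. No identifier of the table was paired with FIP1L1, a gene 775862 bases upstream of PDGFRA on the same strand (PDGFRA at chr5:79342993-79407696, FIP1L1 at chr5:80183558-80261719, minus strand, Mmul_10). Whether the count listed for PDGFRA includes reads of another transcript was not tested. The same holds for UBE2V1, EIF4EBP3, BGLAP and ROS1, whose neighbours TMEM189, ANKHD1, PMF1 and GOPC were likewise paired with no identifier; these 5 pairs were looked up after the values were seen.

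**Figure D3:**
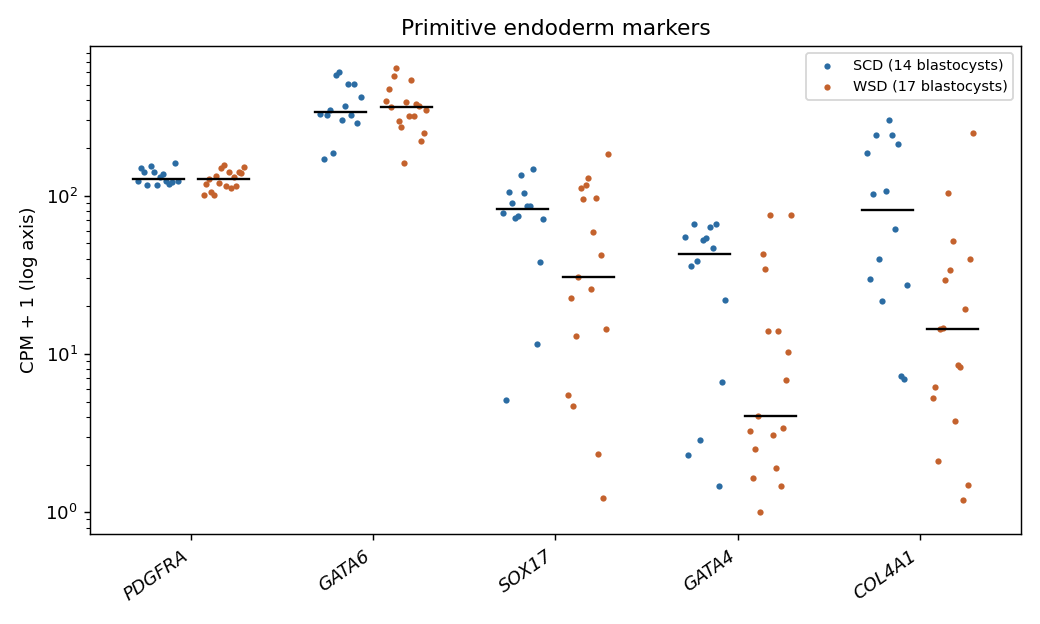
CPM + 1 on a log axis for 5 primitive endoderm markers in each of 14 SCD and 17 WSD blastocysts, with black bars at the group medians. PDGFRA stays between 99.9 and 160 CPM, while COL4A1 spans 0.200 to 298 CPM.

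No marker of another lineage was a member, which the rule fixed in part, since CDX2, TDGF1 and DPPA5 had identifier numbers above the limit and KRT18 and POU5F1 were left out for abundance. Among trophectoderm markers the SD was 0.37 for TFAP2C (rank 883 of the eligible genes), 1.04 for GATA3 and 1.64 for GATA2, and KRT18 had 0.95. Of the epiblast markers NANOG had an SD of 0.68 and rank 4108, while POU5F1 had 0.56. None of the 5 oocyte markers, 4 sperm markers or 2 blood markers was eligible, GDF9 and BMP15 having identifier numbers above the limit. PRM1 and HBA1 were at 0 in all 31 blastocysts, and the highest median among the oocyte markers was 4.34 CPM, for GDF9. The highest value in a single blastocyst was 95.1 CPM for GDF9 and 27.6 CPM for BMP15, above those of the other oocyte markers. Of the cumulus and granulosa markers FSHR, FOXL2, AMH and CYP19A1 had medians of 0.298 CPM or less, and STAR, with a median of 40.0 CPM, had an SD of 0.51.

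Of the 26 reference genes listed, 24 were in the table under their symbols, 14 were eligible and 3 were members. SDHA, the flavoprotein subunit of succinate dehydrogenase, ranked 38th, with 172 to 379 CPM after SCD (median 280) and 203 to 322 after WSD (median 269). TBP, the TATA-binding protein, ranked 171st, with 72.1 to 114 CPM after SCD (median 88.8) and 55.3 to 131 after WSD (median 104). GUSB, a lysosomal glucuronidase, ranked 181st, with 23.8 to 50.3 CPM after SCD (median 41.6) and 30.0 to 56.7 after WSD (median 38.0). For all 3 the diets overlapped.

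Other eligible reference genes had higher SDs, among them TOP1 at rank 451, RPL13A at 2183, EIF4A2 at 2438, RPL19 at 3159, PPIA at 3172, CASC3 at 3708, IPO8 at 4915, HPRT1 at 5465 and POLR2A at 5522. The median SD of the 14 was 0.54, beside 0.55 for all eligible genes. POLR2A, the largest subunit of RNA polymerase II, ran from 30.7 to 260 CPM. Among the reference genes left out for abundance, the SD was 0.21 for ATP5F1B, 0.29 for GAPDH, 0.43 for H2AZ1, 0.44 for ACTB, 0.60 for YWHAZ, 0.75 for PGK1 and 0.93 for TFRC. B2M had an identifier number above the limit and an SD of 1.05. The identifier paired with CYC1 was at 0 in 29 blastocysts, with a highest value of 0.0418 CPM. Whether it takes in the reads of that gene was not tested.

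Translation initiation factors, taken by the start of their symbols, held 5 members among 39 eligible genes (12.8%). EIF3L and EIF3D are subunits of eIF3, the scaffold that brings the messenger RNA to the small ribosomal subunit. EIF3L ranked 14th with 407 to 666 CPM after SCD (median 507) and 401 to 628 after WSD (median 517). EIF3D ranked 22nd with 367 to 716 CPM after SCD (median 492) and 382 to 644 after WSD (median 505). In both the WSD values covered a narrower band than the SCD values. The other eligible eIF3 subunits were less even: EIF3H ranked 813, EIF3F 1215, EIF3G 1273, EIF3I 1453, EIF3A 1724, EIF3M 2225, EIF3K 2787, EIF3E 3770 and EIF3J 4231. EIF2B4 (rank 30) and EIF2B5 (rank 173) are subunits of eIF2B, the exchange factor that recharges eIF2 with GTP, and EIF2B1 lay just outside at rank 228. EIF2B3 ranked 1009 and EIF2B2 2146. The fifth member, EIF4EBP3 at rank 94, shares the start of its symbol but belongs to the repressors that bind eIF4E, and whether its count includes reads of ANKHD1 was not tested.

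Spliceosome genes held 7 members among 44 eligible (15.9%), and their median SD of 0.39 was below the 0.55 of all eligible genes. Members made up 0.755% of the lowest and 7.28% of the highest bin of median CPM. Neither this list nor any other was compared with genes of like level, so the shares are a description. These were the SR proteins SRSF2, SRSF6 and SRSF11, the U2 subunit SF3B4, the tri-snRNP factor PRPF31, and HNRNPR and HNRNPDL. SRSF11 was the most even, at rank 25, with 171 to 298 CPM after SCD (median 235) and 187 to 294 after WSD (median 258). SRSF2 ranked 34th, with 340 to 658 CPM after SCD (median 507) and 381 to 674 after WSD (median 533). Several members outside the list by symbol also act in splicing, among them USP39, RBM39, PUF60, RBM17 and DDX39B. They were noticed after the values were seen.

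Ubiquitin enzymes held 5 members among 68 eligible (7.35%), among them UBE2V1, UBAC2, USP39 and UBE2L3. UBE2L3 had 167 to 299 CPM after SCD (median 207) and 190 to 325 after WSD (median 230). Nuclear pore genes held 3 among 20 (15%), with NUP85 at rank 62, NUP93 at 78 and NUP88 at 192. The 20 were not even as a group, since their median SD was 0.60, and NUP153, NUP188, NUP205 and NUP160 all had an SD above 1. Integrator and cleavage genes held 2 of 24, CPSF6 and INTS10. Vesicle coat and sorting symbols held 2 of 76, the retromer subunit VPS26B and COPS7A, which shares the start of its symbol with coat proteins but belongs to the COP9 signalosome.

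Of the symbols that start with CCT, most of them subunits of the chaperonin that folds actin and tubulin, 1 was eligible. It was CCT2, a member at rank 102, with 285 to 512 CPM after SCD (median 391) and 355 to 548 after WSD (median 457). A further 6 CCT genes had been left out for abundance, and of these CCT7, CCT3 and CCT5 had an SD of 0.17, 0.20 and 0.21. The remaining 3 were less even, with 0.31 for CCT4, 0.32 for CCT6A and 0.57 for CCT8. Had no gene been left out for abundance, 23 of the most abundant genes would have been taken, CCT7 at rank 2.

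Other large complexes supplied few members or none, beside 3.43% of all eligible genes. At that share lists of this size would hold few members, so these counts are a description. Of 49 eligible cytosolic ribosomal protein genes none was a member, their lowest SD being 0.33 and their median 0.58. None of 31 proteasome subunit genes was a member (lowest SD 0.30, median 0.49), and none of 45 RNA polymerase II and Mediator genes (lowest 0.30, median 0.51). Of 50 respiratory chain genes SDHA was a member (2%), and of 40 mitochondrial ribosomal protein genes MRPL3, at rank 182 (2.5%). The median SD of these lists was 0.59 and 0.54.

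HADHA and HADHB, which encode both subunits of the mitochondrial trifunctional protein, ranked 2nd and 16th. HADHB had 196 to 267 CPM after SCD (median 222) and 186 to 322 after WSD (median 253). In the Mmul_10 RefSeq annotation the genes lie head to head on chromosome 13 on opposite strands (HADHA at chr13:82728606-82785363, plus strand, and HADHB at chr13:82679621-82729111, minus strand), and the gene models overlap by 506 bases. Although both were even, their correlation was low: over 31 blastocysts the Pearson correlation of log2(CPM + 1) after TMM scaling was 0.11 and Spearman's rho 0.31, and r was 0.43 without the 2 blastocysts farthest from the median of HADHA. Within SCD r was 0.36 and within WSD 0.20. The correlation between EIF3D and EIF3L was 0.37 (rho 0.43, and 0.45 without 2). Between EIF2B4 and EIF2B5 it was 0.03 (rho 0.05, and 0.13 without 2), with 0.28 within SCD and -0.21 within WSD. Between NUP85 and NUP93 it was 0.15 (rho 0.13, and 0.30 without 2), with 0.35 within SCD and -0.05 within WSD. All correlations here are descriptions over blastocysts that differed in library total and in the levels of lineage markers. What these differences add to the correlations was not tested. The pairs within complexes were picked after the values were seen.

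Over all 19900 pairs of members the median correlation was 0.12, and 7.33% of pairs exceeded 0.5. Over all pairs of eligible genes the median was 0.00 and 12.5% exceeded 0.5. The most correlated members were NAPA, an adaptor that recycles SNARE complexes, and PPP4C, the catalytic subunit of protein phosphatase 4, with r = 0.89, rho = 0.81, and r = 0.84 without the 2 blastocysts farthest from the median of NAPA. They were followed by MLF2 with PPP4C (r = 0.87, rho = 0.84, and 0.83 without 2) and by HNRNPDL with CCT2 (r = 0.83, rho = 0.79, and 0.77 without 2, in each case the 2 farthest from the median of the gene named first). For NAPA and PPP4C, r was 0.87 within the SCD blastocysts and 0.92 within the WSD blastocysts.

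Each blastocyst's departure from the genes' medians was uneven. The root mean square departure of the 200 members was 0.16 to 0.39 log2 units after SCD (median 0.23) and 0.17 to 0.40 after WSD (median 0.24). The highest values were in WSD 16 (0.40) and SCD 8 (0.39), followed by SCD 3 (0.33), WSD 8 (0.33) and WSD 4 (0.32). Over the eligible genes the same blastocysts stood highest, with 1.29 for WSD 16, 1.13 for SCD 8, 0.99 for WSD 8, 0.96 for SCD 3 and 0.82 for WSD 4. WSD 16 was the farthest blastocyst for 40 members and SCD 8 for 32, together with 1592 and 1308 of the eligible genes. Without WSD 16 and SCD 8, a choice made after seeing the data, the same rule kept 137 of the 200 members.

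**Figure D4:**
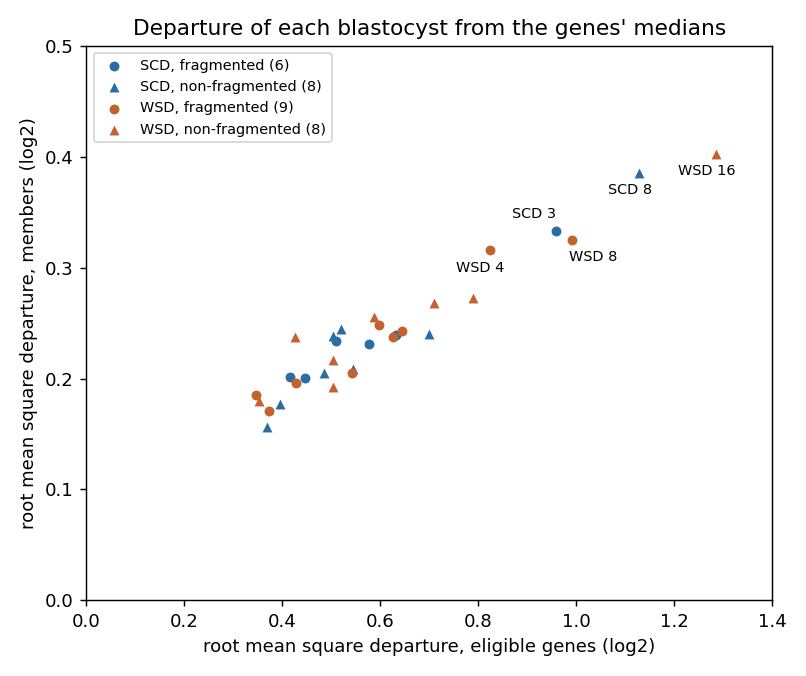
Root mean square departure of each blastocyst from the genes' medians, in log2 units, over the eligible genes (x axis) and over the 200 members (y axis). Colours give the diet and symbols the fragmentation class of 31 blastocysts. WSD 16 and SCD 8 stand highest on both axes.

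The largest departures of single members from their own medians were in these blastocysts. BRD7, a bromodomain subunit of a SWI/SNF complex, had 50.8 CPM in SCD 8 against a median of 102, a departure of -0.99 log2 units. GRB2, the adaptor that links receptor tyrosine kinases to Ras, had 154 CPM in SCD 3 against a median of 291 (-0.91). LSM14A, a P-body protein, had 136 CPM in WSD 16 against a median of 256 (-0.91). All 3 were low values.

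Together the members took 3.36% to 3.96% of all counts after SCD (median 3.55%, mean 3.61% ± 0.193 SD, n = 14) and 3.50% to 4% after WSD (median 3.74%, mean 3.75% ± 0.118 SD, n = 17). The groups overlapped, with the lowest share in SCD 10 and the highest in WSD 4. The mean of log2(CPM + 1) was higher after WSD for 128 of 200 members (64.0%), against 52.6% of the eligible genes. Between the diet means the median absolute gap was 0.10 for the members and 0.22 for the eligible genes. In every member the ranges of the 2 diets overlapped. Such overlap was not counted over the eligible genes, so it is not a trait particular to the members.

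Other measures also differed between the diets, and the members' higher means were not separated from them. Detected genes numbered 17211 to 25762 after SCD (median 20108.5) and 14428 to 20863 after WSD (median 17941). Median CPM of trophectoderm markers was lower after WSD: 751 and 218 for GATA2, 218 and 86.2 for CDX2, 7040 and 3674 for KRT18, 235 and 165 for GATA3, and 540 and 414 for TFAP2C. Of the primitive endoderm markers COL4A1 (80.8 and 13.3), SOX17 (80.9 and 29.7) and GATA4 (41.7 and 3.05) were lower and GATA6 (338 and 360) was not, while PDGFRA, the member, had 127 after both. Of the epiblast markers POU5F1 (415 and 700) and DPPA5 (113 and 169) were higher, and NANOG (85.0 and 77.1) and TDGF1 (12.8 and 8.23) were lower. None of these markers was called by edgeR, the lowest adjusted p being 0.0640 for TFAP2C.

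In edgeR's quasi-likelihood test between the diets, fitted over 13184 genes with Benjamini-Hochberg adjustment, all 200 members were tested and 1 was called at an adjusted p under 0.05, beside 2.08% of all genes tested (274). At an unadjusted p under 0.05 the test picked out 26 members (13%), 24 of them higher after WSD, beside 21.9% of all genes tested. How those genes split by direction was not counted, so the split of the members has no comparison. The rule that chose the members used the same blastocysts, so these shares are a description. The fitted log2 fold change of the members ran from -0.26 to 0.36 with a median of 0.08, and its median over all genes was -0.02.

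The member called was IK, a spliceosome component also named RED. Its CPM was 223 to 355 after SCD (median 252, n = 14) and 262 to 432 after WSD (median 341, n = 17). The diets overlapped between 262 and 355 CPM. The log2 fold change was 0.36 ± 0.10 (SE), with an adjusted p of 0.0495 by edgeR, and over the alternative fits its adjusted p ran from 0.0147 to 0.596. IK lay under the threshold in 17 of 43 fits, this one included. It was not called with the replicate block (adjusted p = 0.126 by edgeR), with RLE scaling (0.0517), with the log10 column total (0.0537) or when detected genes per blastocyst entered as a covariate (0.596), nor without SCD 8 and WSD 16 (0.0697). The log2 fold change in these fits was 0.33, 0.36, 0.35, 0.27 and 0.32, in the same order. DESeq2 called 4 members (IK, ELOA, KANSL2 and RTCB), or 2% of them, beside 7.24% of all genes tested. Leaving out each blastocyst in turn gave 0 to 8 called members. The 8 (4%) were found without SCD 14, where 6.22% of all genes were called. Diet accounted for 40.5% of its variance, the highest of the members, whose median was 4.91% beside 4.66% over the eligible genes.

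After IK the widest gaps between the diet means were in PRC1 and KANSL2, and neither passed the test. PRC1, which bundles microtubules in the spindle midzone, had 177 to 270 CPM after SCD (median 226) and 134 to 272 after WSD (median 180), with a log2 fold change of -0.26 ± 0.10 (SE) and an adjusted p of 0.126 by edgeR. Over the alternative fits its fold change ran from -0.31 to -0.14, the smallest with detected genes as a covariate, and its adjusted p from 0.0711 to 0.745. KANSL2, a subunit of the NSL histone acetyltransferase complex, had 91.6 to 158 CPM after SCD (median 111) and 113 to 177 after WSD (median 141), with a log2 fold change of 0.29 ± 0.09 (SE) and an adjusted p of 0.0792 by edgeR. Its fold change ran from 0.23 to 0.35 over the alternative fits and its adjusted p from 0.0246 to 0.622.

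For the fragmentation class, tested with diet in the model by edgeR, 0 members were called, beside 0% of all genes tested. At an unadjusted p under 0.05 there were 3 members (TOX4 and WBP11 higher in fragmented embryos, BLOC1S5 lower), beside 3.26% of all genes. DESeq2 called 0 members, beside 15 of all 13184 genes (0.114%). For the diet by fragmentation term edgeR also called 0 members, beside 0% of all genes tested. Only NUP93 had an unadjusted p under 0.05, beside 3.29% of all genes, and DESeq2 called 0 members and 0 genes in all.

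The SD of log2(CPM + 1) was larger over the WSD than over the SCD blastocysts in 114 of 200 members (57.0%), and in 54.0% of the eligible genes. The eligible share depended on single libraries: without SCD 8 it was 71.3% (132 members), and without WSD 16 it was 41.5% (108 members). The median SD of the members was 0.23 after SCD and 0.24 after WSD. HADHA was among the most unequal of the leading members, with an SD of 0.11 after SCD and 0.21 after WSD. Its value in WSD 16, 185 CPM, lay below the 242 to 352 CPM of the other WSD blastocysts.

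Sequence and position were not used by the rule. Of the 200 members, 192 were matched by symbol to a gene on an assembled chromosome of the Mmul_10 RefSeq annotation, as were 5600 of 5828 eligible genes (96.1%), and all 192 encode proteins. The median exon length was 2770.5 bases for the members and 3433 for the eligible genes, and the median coding length 1362 and 1554. None of the 192 lay on the X chromosome, which held 167 eligible genes (2.98%). Chromosome 1 held the most members, 29 among 574 eligible genes (5.05%). The highest shares were on chromosome 10, with 23 of 310 (7.42%), and chromosome 16, with 18 of 334 (5.39%). Apart from the X chromosome, the lowest were on chromosome 12, with 2 of 183 (1.09%), and chromosome 14, with 4 of 337 (1.19%). Another protein-coding gene overlapped 38 members (19.8%) and 22.2% of the eligible genes. Since the strand setting of the counting is not given in the sources used here, counts of members that overlap a gene on the other strand, such as HADHA and HADHB, are uncertain.

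From 250 bases before to 50 after the annotated start, the median G+C content was 62.7% for the members and 62.3% for the eligible genes, and the median number of CpG per 100 bases was 8.00 and 7.67. The motifs were searched on both strands in this window. GGGCGG, the GC box, occurred in 65.6% of members and 64.7% of eligible genes, and CCAAT in 38.5% and 36.7%. The ETS core CCGGAAG occurred in 18.8% and 18.1%, TATAAA in 5.73% and 6.66%, the NRF1 core GCATGCGC in 8.33% and 5.50%, and the cyclic AMP response element TGACGTCA in 5.73% and 3.55%. A match is a description of the letters and not of binding.

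For 36 of the 192 members (18.8%) another protein-coding gene started within 1000 bases upstream on the opposite strand, which was so for 12.8% of the eligible genes. Of these 36 partners 19 were eligible, with a median SD of 0.45, and 4 were members, forming 2 pairs: EIF2B4 with SNX17, a sorting nexin of endosomal recycling, and RTCB, the RNA ligase of tRNA splicing, with FBXO7, a substrate receptor of a ubiquitin ligase. The partner of KLHDC3, MEA1, starts 15 bases away and ranked 2616. Across the blastocysts r was 0.52 for EIF2B4 and SNX17 (rho 0.54, and 0.75 without the 2 blastocysts farthest from the median of EIF2B4) and 0.59 for RTCB and FBXO7 (rho 0.53, and 0.50 without 2, chosen by RTCB). Within SCD r was 0.54 and 0.57, and within WSD 0.36 and 0.42. SNX17 ranked 55th, with 174 to 279 CPM after SCD (median 216) and 198 to 319 after WSD (median 244), and EIF2B4 had 89.8 to 150 (median 111) and 84.6 to 152 (median 125).

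The whole stretch between the starts of each pair is shown because 2 members share it, read on the plus strand from Mmul_10: 140 bases at chr13:81579633-81579772 between SNX17 and EIF2B4, and 109 bases at chr10:19096052-19096160 between FBXO7 and RTCB. Capitals mark AANATGGC, a YY1 core, and ACTACANTT, part of a ZNF143 element, on either strand, both added to the search after this sequence was read. Over the whole window these occurred in 10.9% and 1.56% of members and in 8.34% and 2.32% of eligible genes. The first stretch holds 1 match of each, and the second holds none of the motifs searched.
SNX17 to EIF2B4: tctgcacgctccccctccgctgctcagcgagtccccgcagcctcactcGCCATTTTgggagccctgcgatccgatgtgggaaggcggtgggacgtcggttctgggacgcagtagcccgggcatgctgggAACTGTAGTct
FBXO7 to RTCB: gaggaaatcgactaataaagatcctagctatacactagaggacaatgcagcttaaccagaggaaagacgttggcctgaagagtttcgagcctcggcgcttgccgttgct

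YY1 itself was a member, at rank 150 with 35 to 65.3 CPM after SCD (median 46.5) and 26.9 to 64.9 after WSD (median 51.1). So were HDAC1, a histone deacetylase, at rank 97 with medians of 330 and 293 CPM, NFYC, a subunit of the CCAAT-binding factor, at rank 105 with 96.8 and 87.5 CPM, and CDK4, the cyclin D kinase, at rank 79 with 279 and 297 CPM. These 4 were named after their values were seen, and in each the diets overlapped.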

How the data were processed

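The authors amplified cDNA from single blastocysts and sequenced it in single-end runs. By the submitters' processing notes the tools were bcl2fastq, FastQC 0.11.8, Trimmomatic 0.39 and STAR 2.7.0 with the Mmul_10 genome. The authors deposited raw counts per Ensembl gene, whole numbers with no normalization. All 31 columns matched a sample by name, and 0 columns were left over. Symbols were available for 24173 of 35395 identifiers and for 199 of the 200 members.

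The counts were tested with edgeR 4.0.16 in R 4.3.3 (glmQLFit with legacy = TRUE and robust = FALSE, filterByExpr by diet, TMM scaling, Benjamini-Hochberg adjustment over all genes tested). DESeq2 1.42.0 was an alternative, and the main test was tested on simulated data. Standard errors, taken from the fold change and F, are approximate. The variance share of diet is the sum of squares between diet means over the total.

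The members and gene lists were chosen with earlier results of these data known. Named genes were the 10 lowest SDs, 3 on each side of the threshold, the 3 highest and lowest levels, the 3 largest departures and the 3 widest diet gaps, members called (the 2 largest increases and decreases), the 3 most correlated pairs, and members of a list and reference genes, of which some are not printed. Of 227 same-diet pairs none was a repeated library (lowest chi-square per degree of freedom 40.1). By the paper the sequenced blastocysts came from 5 females on SCD and 7 on WSD, 5 of whom gave blastocysts on both diets. The labels do not say which female gave which blastocyst, so the tests with n = 14 and n = 17 treat blastocysts of a shared dam as independent. Positions and sequence came from the Mmul_10 RefSeq annotation, whereas the counts used Ensembl models, so gene starts may differ. The paired sequences and the YY1 and ZNF143 letters were chosen after the values were seen.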

Additional observations from a re-analysis of the deposited data

Results flagged for a closer look

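Within each diet and fragmentation class (6 to 9 blastocysts), 3 summary measures and 16 members were searched for a blastocyst far from the rest of its class, 76 groups in all, of which 8 had one. Some of these members were named for their large departures and all were selected on their spread, so the 8 cannot be compared with the 1 in 20 groups that the same rule marks by chance in unselected values. The root mean square departure of the members stood apart in SCD 3 (0.33, others 0.20 to 0.24), in SCD 8 (0.39, others 0.16 to 0.24) and in WSD 16 (0.40, others 0.18 to 0.27). The median departure of the members was highest in WSD 4, at 0.13 log2 units (others -0.04 to 0.04) by the column-total CPM of the rule. After TMM scaling it was 0.18 in WSD 4, with 0.23 in WSD 8 of the same class and 0.27 in WSD 16, so that WSD 4 was no longer highest.

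KLHDC3 stood apart in SCD 6 with 149 CPM (others 108 to 118), GRB2 in WSD 17 with 454 CPM (others 252 to 335) and LSM14A in WSD 16 with 136 CPM (others 208 to 266). IK, the member called for diet, had 337 CPM in SCD 14, above the 223 to 271 of the other non-fragmented SCD blastocysts. What sets these blastocysts apart was not tested.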

How the results depend on the processing

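The choice of members depended on the measure of spread and on the blastocysts used. The rule kept 83 of 200 members with the median absolute deviation, 118 with SCD blastocysts only, 119 with WSD only, 116 with fragmented and 127 with non-fragmented embryos. TMM scaling kept 159, RLE scaling 144, and leaving out each blastocyst in turn 147 (without SCD 8) to 194. All 47 settings shared 31 members.

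The count of 1 member called for diet became 26 at an unadjusted p under 0.05 (21.9% of all genes tested), 4 with DESeq2 (7.24%) and 2 with legacy = FALSE (7.27%), beside 2.08% in the test reported. It was 0 with RLE scaling (2.25% of all genes), with the log10 column total (1.55%) or detected genes (0%) as a covariate, and without SCD 8 and WSD 16 together (1.17%), a setting added after seeing the data. With each blastocyst left out in turn it ran from 0 (first seen without SCD 1) to 8 (without SCD 14, 6.22% of all genes). With the replicate block it was 0 (7 genes of 13184). The 13 pairs that share a replicate number had a mean correlation of 0.03 (-0.46 to 0.33), and 0 blastocysts were closest to their own number, so the numbers were taken as names only. At an unadjusted p under 0.05, 3 members were called for fragmentation (1.5%, beside 3.26% of all genes) and 1 for diet by fragmentation (0.5%, beside 3.29%). The members' median share was 4.88% of the counts outside the 200 most abundant genes.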
